A study of Phaffia rhodozyma with 6 samples.

Results

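The carotenoid synthesis genes described here are the 5 genes of the astaxanthin-producing yeast Phaffia rhodozyma that the authors' deposited table names as geranylgeranyl pyrophosphate synthase (CDZ97186), phytoene-beta carotene synthase (CED83449), phytoene dehydrogenase (CED83513) and astaxanthin synthase (CED83940 and CED83052). They were taken by identifier from the 6363 genes of the table, and all 5 were tested by the authors. RNA came from fermenter cultures of the mutagenised strain BPAX-A1 (3 cultures) and of the wild-type strain CBS6938 (3 cultures), sampled in late exponential phase, when astaxanthin formed fastest. Both strains grew on sucrose in a defined medium at pH 5.5, 20 °C and 70% dissolved oxygen, and which mutations BPAX-A1 carries is not recorded in the labels. The table holds 1 FPKM value (a fragment count scaled by transcript length and library size) per gene for each of 2 conditions called q2 and q1. Neither name could be matched to a strain from the labels or the headers. All comparisons are of q2 with q1, and whether q2 is BPAX-A1 or CBS6938 is unknown here.

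Carotenoids are built from the isoprenoid units of the mevalonate pathway. Geranylgeranyl pyrophosphate synthase lengthens farnesyl pyrophosphate to geranylgeranyl pyrophosphate, which takes it away from the sterol branch. In P. rhodozyma a bifunctional enzyme first joins geranylgeranyl pyrophosphate into the colourless phytoene and later closes the rings of lycopene to give beta-carotene. Phytoene dehydrogenase, a desaturase, acts between these steps and turns phytoene into the red lycopene. A cytochrome P450 monooxygenase, astaxanthin synthase, then oxidises both rings of beta-carotene to astaxanthin, with electrons from a cytochrome P450 reductase. In the authors' deposited table both genes named astaxanthin synthase carry the Gene Ontology term for monooxygenase activity.

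The genes of the first 3 enzymes and one of the astaxanthin synthase genes, CED83940, all had higher values in q2, by 2.63-fold to 4.60-fold, with the smallest difference at the first enzyme and the largest at the last, though these differ from one another by less than their errors (below 1 combined implied error for each pair). The other astaxanthin synthase gene, CED83052, was low in both conditions and had nearly equal values. None of the 5 passed the authors' test over all genes: by Cuffdiff, 0 of 5 had a q-value below 0.05, where 5.53% of the 6272 tested genes did. At an unadjusted p-value below 0.05, 2 of the 5 were higher in q2, against 10.5% of tested genes. At least 2-fold higher values in q2 were found for 4 of the 5 genes, against 18.1% of tested genes, and at least 4-fold higher values for 1 of them, against 6.06%. These 4 values stand for 1 estimate per condition, and the authors' table gives no spread between cultures.

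The summed FPKM of the whole table was 2.10 times as high in q2 as in q1, and genes named as 40S or 60S ribosomal proteins held 56.1% of it in q2 and 36.3% in q1. Only 0.11 of log2 separated the conditions at the median of the 6106 genes above 1 FPKM in both. The choice of scale therefore moves every level difference given here by up to 1.07 on the log2 scale, and the part of this imbalance in the differences was not tested. Ratios between genes within a condition do not depend on it. Sequencing depth per library is unknown. FPKM values are relative to the mapped fragments, so more RNA per cell and a larger share of the RNA cannot be told apart.

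Geranylgeranyl pyrophosphate synthase (CDZ97186, scaffold 79, 1539235 to 1541616), which makes the precursor of all carotenoids, had 254 FPKM in q2 and 96.5 FPKM in q1 in the authors' deposited table. Its log2 ratio was 1.40, a 2.63-fold difference, with a p-value of 0.0232 and a q-value of 0.213 by Cuffdiff. The standard error implied by that p-value was 0.62 on the log2 scale. Such an implied error is only another form of the authors' p-value, since values of single cultures are not in the table. Its level was higher than that of 89.5% of all genes in q2 and 76.7% in q1.

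Phytoene-beta carotene synthase (CED83449, scaffold 52, 2328105 to 2330490), the bifunctional enzyme that forms phytoene and cyclises lycopene, had 215 FPKM in q2 and 75.6 FPKM in q1 in the authors' deposited table. The log2 ratio was 1.51, a 2.85-fold difference (Cuffdiff p 0.0652, q 0.389), with an implied standard error of 0.82. In q2 it had the lowest level of the 4 higher-valued genes. In q1 it stood just above the astaxanthin synthase gene CED83940.

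Phytoene dehydrogenase (CED83513, scaffold 52, 2543352 to 2546178), the desaturase that yields lycopene, had the highest level of the 5 genes in both conditions, with 821 FPKM in q2 and 243 FPKM in q1 in the authors' deposited table. It ranked 204 among all genes in q2 and 571 in q1. The log2 ratio of 1.76 was a 3.38-fold difference (Cuffdiff p 0.0918, q 0.452). This gene also had the largest implied standard error of the 5, 1.04, where the median over tested genes of similar mean FPKM (the same decile) was 0.82.

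The astaxanthin synthase gene CED83940 (scaffold 69, 1230024 to 1233189), named for the P450 step from beta-carotene to astaxanthin, had 328 FPKM in q2 and 71.3 FPKM in q1 in the authors' deposited table. Its log2 ratio of 2.20, a 4.60-fold difference, was the largest of the 5 and ranked 294 among the tested genes. The Cuffdiff p-value was 0.00685 and the q-value 0.0957, with an implied standard error of 0.81. At a q-value below 0.10 it was the 1 gene of the 5 called, against 7.30% of tested genes. The gene had the lowest level of the 4 higher-valued genes in q1 and the second highest in q2.

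The other astaxanthin synthase gene, CED83052 (scaffold 52, 1164497 to 1168572), had 7.31 FPKM in q2 and 7.68 FPKM in q1 in the authors' deposited table. These levels were above those of only 9.04% of all genes in q2 and 10.9% in q1. The log2 ratio was -0.07 (Cuffdiff p 0.873, q 0.974) with an implied standard error of 0.45. An approximate 95% interval from that error ran from -0.94 to 0.80. A difference of up to about 1.74-fold in the direction of q2 was thus within it. Cuffdiff's test score for this gene, -0.10, would give a larger error and so a wider interval. Which of the 2 genes encodes the enzyme that acts in astaxanthin formation is not recorded in the table.

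**Figure D1:**
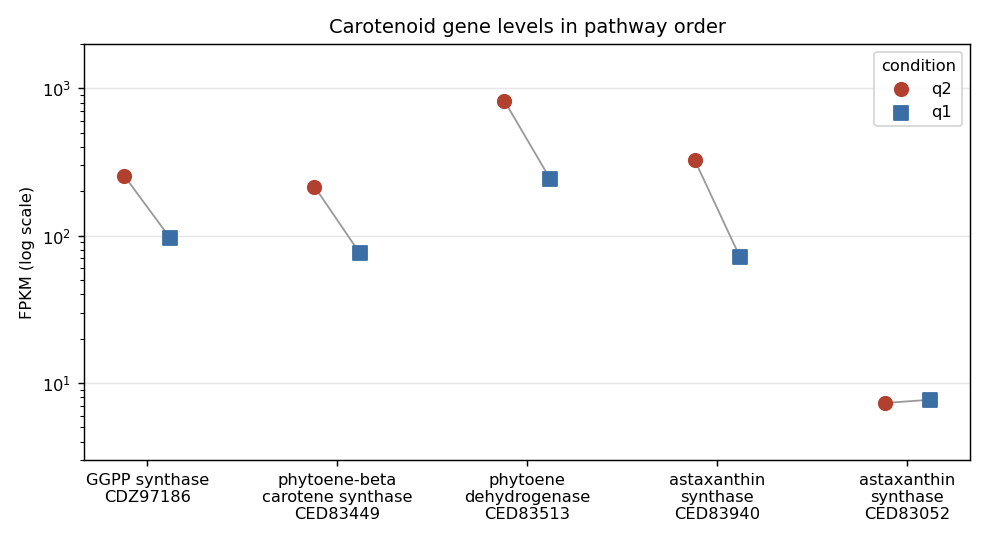
FPKM of the 5 carotenoid synthesis genes in pathway order on a log scale, 1 point per condition (circles q2, squares q1; GGPP is geranylgeranyl pyrophosphate), with no error bars because the table holds 1 value per condition. Phytoene dehydrogenase was highest in both conditions, at 821 FPKM in q2 and 243 FPKM in q1, and CED83052 was near 7 FPKM in both.

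The order of levels was phytoene dehydrogenase, CED83940, geranylgeranyl pyrophosphate synthase, phytoene-beta carotene synthase and CED83052 in q2. In q1 it was phytoene dehydrogenase, geranylgeranyl pyrophosphate synthase, phytoene-beta carotene synthase, CED83940 and CED83052. With no spread over cultures, it cannot be said which neighbours in these orders differ. The 5 genes together had 1626 FPKM in q2 and 494 FPKM in q1, a 3.29-fold difference. Phytoene dehydrogenase made up 50.5% of that sum in q2 and 49.2% in q1. The share of CED83940 was 20.2% in q2 and 14.4% in q1, and that of geranylgeranyl pyrophosphate synthase was 15.6% in q2 and 19.5% in q1. Phytoene-beta carotene synthase held 13.3% in q2 and 15.3% in q1.

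Step by step, the ratios between successive genes differed between the 2 conditions by less than the errors implied by the authors' p-values. Phytoene-beta carotene synthase stood at 0.848 times the FPKM of geranylgeranyl pyrophosphate synthase in q2 and 0.783 times in q1. The log2 difference of that ratio was 0.11, with a combined implied standard error of 1.02. Phytoene dehydrogenase stood at 3.81 times the FPKM of phytoene-beta carotene synthase in q2 and 3.21 times in q1, a log2 difference of 0.25 with a combined error of 1.33. This step, from the enzyme that makes phytoene to the one that uses it, was the steepest increase in level along the pathway in both conditions.

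CED83940 stood at 0.399 times the FPKM of phytoene dehydrogenase in q2 and 0.293 times in q1 (log2 difference 0.45, combined error 1.32). From the first to the last step, CED83940 over geranylgeranyl pyrophosphate synthase, the ratio was 1.29 in q2 and 0.738 in q1, a log2 difference of 0.81 with a combined error of 1.02. All 6 ratios among these 4 genes thus differed between conditions by less than their combined errors. These errors take the genes as independent and are approximate, and they do not show that the ratios were equal.

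The pair of genes that share the name astaxanthin synthase had the largest difference in ratio of the 10 pairs. CED83940 had 44.9 times the FPKM of CED83052 in q2 and 9.28 times in q1. As CED83052 over CED83940 the log2 difference was -2.27, with a combined implied error of 0.93. It was the 1 pair of 10 in which the difference was more than 2 combined errors. That count rests on errors from the p-values. Errors taken from Cuffdiff's test scores, 2.04 for CED83940 and -0.10 for CED83052, would be larger. With errors taken as the log2 ratio over the test score and combined in the same way, the difference falls below 2 combined errors. The other 3 ratios with CED83052 on top, over the 3 earlier enzymes, had log2 differences of -1.47 to -1.83.

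**Figure D2:**
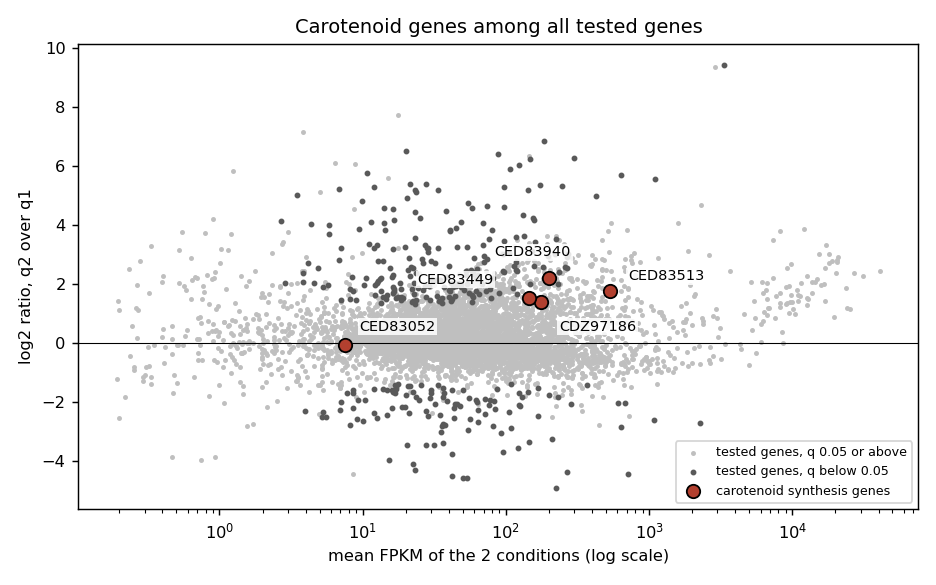
Log2 ratio of q2 over q1 against the mean FPKM of the 2 conditions (log scale) for the tested genes with values above 0 in both, dark where the authors' q-value was below 0.05. The 4 higher-valued carotenoid genes lie between 1.40 and 2.20 among genes of high level, and CED83052 lies at -0.07 among genes of low level.

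The genes that make the prenyl precursors did not share the higher values of the 4 carotenoid genes. Of 7 genes of the mevalonate pathway and prenyl supply, 0 were called by Cuffdiff, against 5.53% of tested genes, and 0 had an unadjusted p-value below 0.05, against 10.5% of tested genes higher and 4.13% lower. With 7 genes, counts of 0 are near these shares. All 7 had lower values in q2, where 57.7% of tested genes had higher ones. Their median log2 ratio was -0.32, where that of all tested genes was 0.12. Hydroxymethylglutaryl-CoA reductase (CED85502), the main control point of the pathway in fungi and animals, had 40.2 FPKM in q2 and 42.0 FPKM in q1 in the authors' deposited table (log2 -0.06, implied error 0.59). Hydroxymethylglutaryl-CoA synthase (CED83016), which acts just before it, had 89.0 FPKM in q2 and 162 FPKM in q1, the lowest log2 ratio of the list at -0.86 (Cuffdiff q 0.560).

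The 3 enzymes that carry mevalonate to isopentenyl pyrophosphate had log2 ratios of -0.20 for mevalonate kinase (CED82307), -0.51 for phosphomevalonate kinase (CDZ97430) and -0.32 for diphosphomevalonate decarboxylase (CED83492). Isopentenyl pyrophosphate isomerase (CED82414), which supplies the allylic starter unit, had 156 FPKM in q2 and 239 FPKM in q1 in the authors' deposited table (log2 -0.62). Farnesyl pyrophosphate synthase (CDZ96456), which makes the substrate of geranylgeranyl pyrophosphate synthase, had 111 FPKM in q2 and 127 FPKM in q1 (log2 -0.20, Cuffdiff q 0.951). The level of geranylgeranyl pyrophosphate synthase over that of farnesyl pyrophosphate synthase was therefore 2.29 in q2 and 0.758 in q1. The log2 difference of that ratio was 1.59 with a combined implied error of 0.90. Over isopentenyl pyrophosphate isomerase the ratio of geranylgeranyl pyrophosphate synthase was 1.63 in q2 and 0.403 in q1 (log2 difference 2.01, combined error 0.84). This was the largest difference of those computed for the gene. Over hydroxymethylglutaryl-CoA reductase the log2 difference was 1.46 (combined error 0.85). Over a gene named phytoene/squalene synthetase (CED85288) it was 0.87 (combined error 0.75). The errors of these ratios rest on the p-values, and errors taken from Cuffdiff's test scores would be larger.

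At the branch point, the gene named phytoene/squalene synthetase (CED85288) had 70.0 FPKM in q2 and 48.5 FPKM in q1 in the authors' deposited table (log2 0.53, implied error 0.42). Its name fits either branch, since squalene synthase opens the sterol route with the same kind of head-to-head condensation that forms phytoene. Phytoene-beta carotene synthase over this gene was 3.08 in q2 and 1.56 in q1, a log2 difference of 0.98 with a combined error of 0.92. A second gene named geranylgeranyl pyrophosphate synthase/polyprenyl synthetase (CED82684) had 126 FPKM in q2 and 71.9 FPKM in q1 (log2 0.81, Cuffdiff q 0.649). CED85288 and CED82684 are placed at the branch by name alone, and their functions were not tested. A list of 10 sterol genes was mostly of the later sterol route, which uses the same farnesyl pyrophosphate. It also held a sterol o-acyltransferase (CDZ96511) and a sterol-regulatory protease (CED83298), which are not steps of that route. Of the 10 sterol genes, 0 were called by Cuffdiff, against 5.53% of tested genes. At an unadjusted p-value below 0.05, 0 of these were higher and 1 lower, against 10.5% of tested genes higher and 4.13% lower. The median log2 ratio of the 10 was -0.02.

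**Figure D3:**
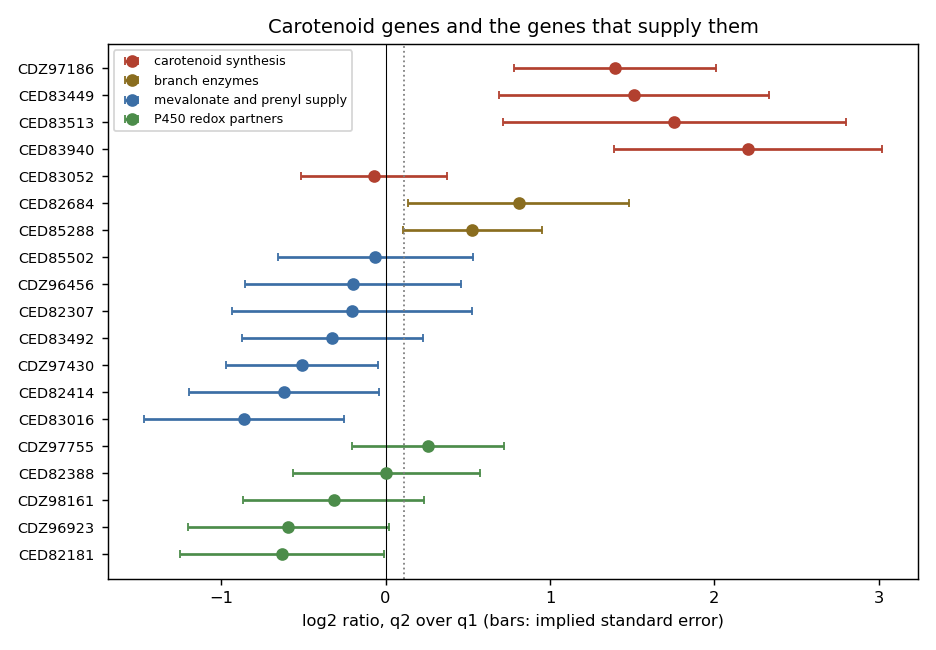
Log2 ratio of q2 over q1 for the 5 carotenoid genes, 2 branch enzymes (so placed by name), 7 supply genes and 5 redox partner genes. Bars are 1 implied standard error on each side, and the dotted line is at the median of 0.11. The 4 higher-valued carotenoid genes lie at 1.40 or above, the branch enzymes at 0.53 and 0.81, and the supply genes at -0.06 or below.

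Astaxanthin synthase needs a redox partner, and 5 genes of that kind were in the table. Of these, 0 were called by Cuffdiff, against 5.53% of tested genes, and 0 had an unadjusted p-value below 0.05, against 10.5% of tested genes higher and 4.13% lower. With 5 genes, counts of 0 are near these shares. The gene named cytochrome p450 oxidoreductase (CDZ98161), the class of enzyme that passes electrons from NADPH to P450 enzymes, had 55.5 FPKM in q2 and 69.0 FPKM in q1 in the authors' deposited table (log2 -0.31, implied error 0.55). Its level was thus below that of CED83940 in q2 and close to it in q1. The 3 genes named cytochrome b5, a small electron carrier that can also serve P450 enzymes, had log2 ratios of -0.59 (CDZ96923), 0.26 (CDZ97755) and 0.00 (CED82388). NADH-cytochrome b5 reductase (CED82181) had 211 FPKM in q2 and 327 FPKM in q1 (log2 -0.63).

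Among the 13 tested genes whose names hold cytochrome P450 or astaxanthin synthase, CED83940 had the highest level in both conditions. It held 52.0% of the summed FPKM of the genes so named in q2 and 29.9% in q1. This list by names leaves out lanosterol demethylase (CED84182), a P450 of the sterol route, which had 119 FPKM in q2 and 161 FPKM in q1 in the authors' deposited table, below CED83940 in q2 and above it in q1. Within the list the log2 ratio of CED83940 was the second highest, after a P450 of the CYP3/CYP5/CYP6/CYP9 subfamilies (CED84998). That gene had 131 FPKM in q2 and 7.91 FPKM in q1 (log2 4.05, Cuffdiff q 0.00226). The lowest 2 log2 ratios were those of a CYP2 subfamily gene (CED85015), with 3.07 FPKM in q2 and 14.2 FPKM in q1 (log2 -2.21, Cuffdiff q 0.0098), and of CED82798 (log2 -0.76, not called). These 2 called genes, 1 in each direction, were the only genes of this list with a q-value below 0.05 in the authors' deposited table, where 3.65% of tested genes were called higher and 1.88% lower. CED83052 ranked 9 of 13 by level in q2 and 10 of 13 in q1. The median log2 ratio of the 13 was 0.34.

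The 5 carotenoid genes lay apart from one another on the scaffolds. CED83052, CED83449 and CED83513 shared scaffold 52. Between the closest of these, CED83449 and CED83513, lay 212861 bases and 62 tested genes, with a median log2 ratio of -0.07. Of those 62 genes 4 were called, a share close to the 5.53% of all tested genes. Of the 10 genes directly beside a carotenoid gene, 0 overlapped it, and the gaps were 121 to 1518 bases. Among these 10 neighbours 2 were called, both higher in q2, against 3.65% of tested genes. One was a predicted transporter of the major facilitator superfamily (CED83450) next to phytoene-beta carotene synthase. Its values in the authors' deposited table were 54.3 FPKM in q2 and 12.4 FPKM in q1, a log2 ratio of 2.13 with a q-value of 0.00226. The other was a hypothetical protein (CED83941) next to CED83940, with 25.7 FPKM in q2 and 7.61 FPKM in q1 (log2 1.76, q 0.0112).

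On the other side of phytoene-beta carotene synthase, 5-formyltetrahydrofolate cyclo-ligase (CED83448), an enzyme of folate metabolism, had 107 FPKM in q2 and 50.9 FPKM in q1 (log2 1.07, Cuffdiff q 0.430). The coiled-coil protein gene before CED83940 (CED83939) had a log2 ratio of 0.15. Both neighbours of phytoene dehydrogenase had lower values in q2, a histone-like protein gene (CED83512) at -0.78 and a methionine aminopeptidase gene (CED83514) at -0.75. Geranylgeranyl pyrophosphate synthase stood between a DnaJ chaperone gene (CDZ97185) at -0.65 and an E3 ubiquitin ligase gene (CDZ97187) at 0.26. The neighbours of CED83052 were a density-regulated protein gene (CED83051) at 0.91 and a hypothetical protein gene (CED83053) at 0.84. Within 5 genes on either side, 3 of 50 neighbours were called, against 5.53% of tested genes, and their median log2 ratio was 0.09.

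**Figure D4:**
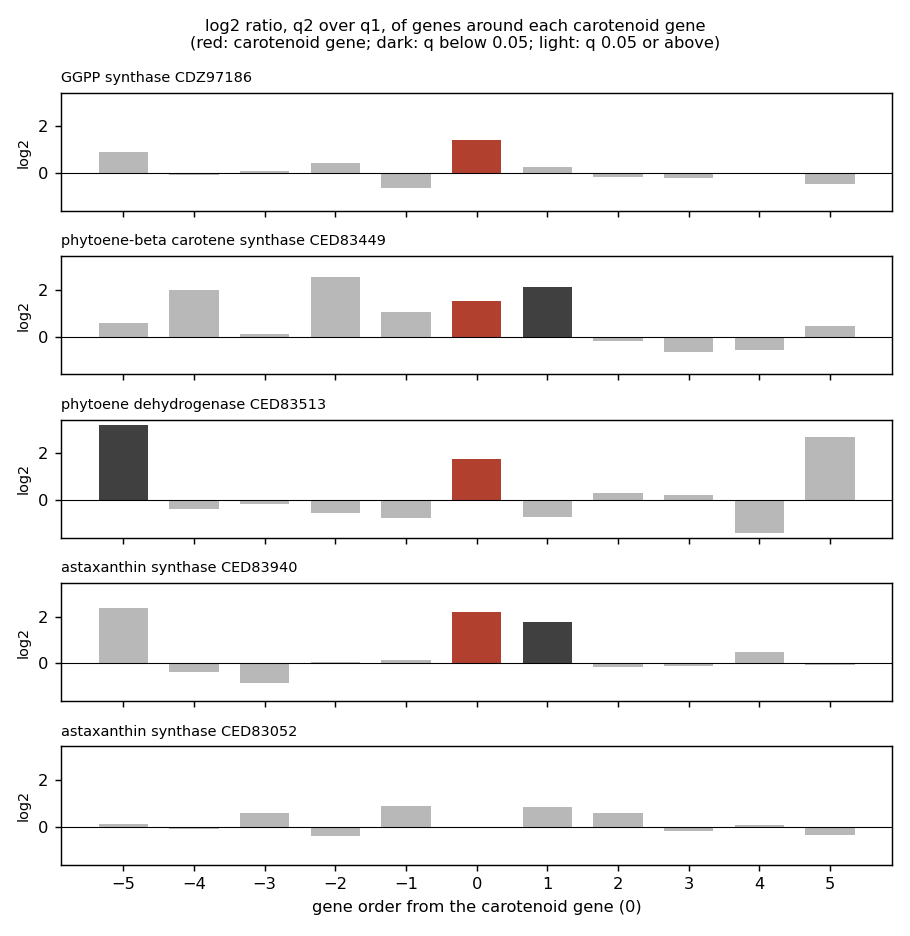
Log2 ratio of q2 over q1 (bars) for the 5 genes on either side of each carotenoid gene, by gene order on the scaffold. The carotenoid gene is red, genes with a q-value below 0.05 are dark, and the called direct neighbours lie at 2.13 beside CED83449 and 1.76 beside CED83940.

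The genes with the most similar pair of levels were found by distance over the log2 FPKM of the 2 conditions, which is a likeness over only 2 values. Nearest to geranylgeranyl pyrophosphate synthase were a dolichyl pyrophosphate phosphatase (CED84311) at a distance of 0.0913 and a Seh1-like nuclear pore component (CED82409). For phytoene-beta carotene synthase they were the nucleolar protein p130 (CDZ98410) at 0.0245 and an Rrp41-like exosome subunit (CED82449). Phytoene dehydrogenase was nearest to ribosomal protein L22e (CDZ96702) at 0.0405 and to a ribosomal protein L30 domain gene (CDZ97684). CED83940 was nearest to glutaminyl-tRNA synthetase (CDZ96939) at 0.0928 and to a predicted membrane protein (CDZ97093). CED83052 was nearest to a Zn(2)-C6 fungal-type DNA-binding domain gene (CED85222) at 0.0377 and to a BRCT domain gene (CED85627). By Cuffdiff, 0 of these 10 genes were called, and 2 of them (CDZ96702 and CDZ97093) were higher in q2 at an unadjusted p-value below 0.05. The 10 genes were picked by these same levels. Their counts therefore cannot be weighed against the shares of all tested genes, 5.53% and 10.5%.

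The scale set between the conditions changed the size of the differences. With each condition brought to the same FPKM sum, the log2 ratios were 0.33 for geranylgeranyl pyrophosphate synthase, 0.44 for phytoene-beta carotene synthase, 0.69 for phytoene dehydrogenase and 1.13 for CED83940. On that scale 1 of the 5 genes was at least 2-fold higher in q2, against 5.45% of tested genes, and CED83052 stood at -1.14. With the ribosomal protein genes left out of the sum, 2 of the 5 were at least 2-fold higher, against 10.1% of tested genes. The count was 4 of 5 with the median of the genes above 1 FPKM subtracted, against 16.3% of tested genes. At equal upper quartiles it was 4 of 5, against 13.5%. An equal sum of the supply and branch genes also gave 4 of 5, against 23.8%. That last scale was chosen after the data were seen. The summed FPKM of its genes was lower in q2, so it raises every log2 ratio. The 4 genes had higher values in q2 on every scale shown. At equal FPKM sum, though, the log2 ratios of CDZ97186, CED83449 and CED83513 were smaller than their implied errors of 0.62, 0.82 and 1.04. Each scale subtracts 1 constant from all genes, so the order of the log2 ratios is fixed.

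**Figure D5:**
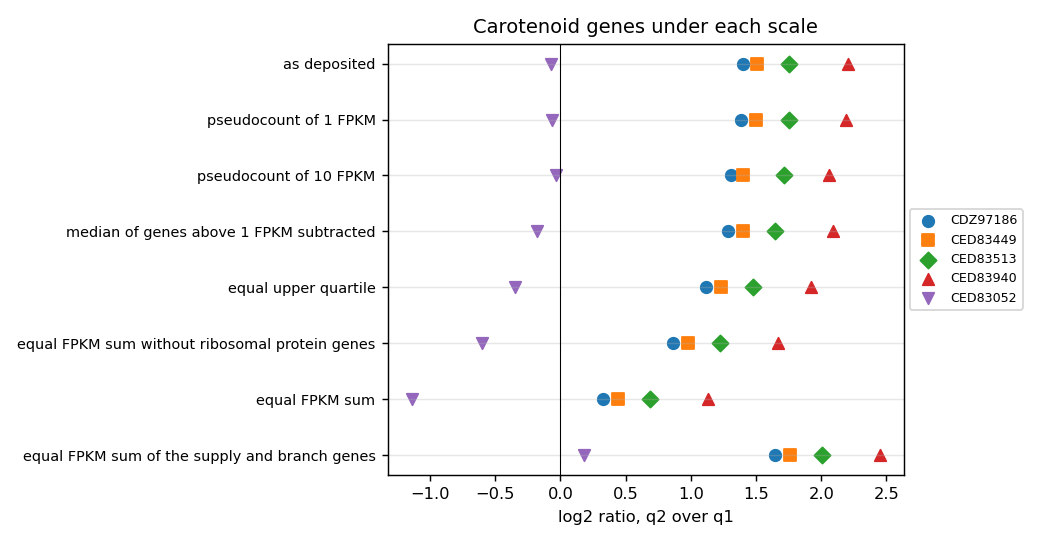
Log2 ratio of q2 over q1 of the 5 carotenoid genes as deposited, with 2 pseudocounts and under 5 other scales between the conditions. For CED83940 the values run from 1.13 (equal FPKM sum) to 2.45 (equal sum of supply and branch genes), and CED83052 runs from -1.14 to 0.18.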

How the data were processed

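Per the submitters' processing notes, the authors used FastQC, Trimmomatic, TopHat, Cufflinks and Cuffdiff, and per the labels' protocols an Illumina stranded mRNA kit served for the libraries. Tool versions, build and gene annotation were not given in the sources used here, so loci are on numbered scaffolds, with no exon detail. The deposited table gives, per the file headers, FPKM per gene and condition, their log2 ratio (q2 over q1), Cuffdiff's test score, and p-values with q-values. The file's starts were taken to count from 0, and 1 was added. No column holds a single sample, so the 3 cultures of a strain could not be compared, depth per library is unknown and no replicate test was made.

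Calls used the authors' q-value below 0.05 over all 6272 tested genes. The implied standard error is the absolute log2 ratio over the normal quantile of the two-sided p-value. Approximate 95% intervals use it, and errors of ratios were combined in quadrature. Lists were fixed by identifier (7 supply, 2 branch and 10 sterol genes) or by words in the names (redox partners, P450 and ribosomal protein genes), and 1 cyclophilin was removed from the P450 matches. Genes named are the 5 members, the supply, branch and redox genes, the extreme or called P450 genes, direct neighbours, and the 2 nearest described genes per member. Members and lists were chosen with earlier results of these data known. Scripts ran in Python 3.11.15 with numpy, pandas, scipy and matplotlib, and were tested on simulated data. Alternatives were pseudocounts of 1 and 10 FPKM, 5 scales between conditions, other thresholds and filters on low values.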

Additional observations from a re-analysis of the deposited data

How the results depend on the processing

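With each condition brought to the same FPKM sum, the log2 ratios moved by more than their implied error, to 0.33 (CDZ97186), 0.44 (CED83449), 0.69 (CED83513), 1.13 (CED83940) and -1.14 (CED83052), and 1 gene in place of 4 was at least 2-fold higher in q2. With the ribosomal protein genes left out of the sum, CED83052 moved to -0.60 and 2 genes were at least 2-fold higher. At 4-fold, 1 gene passed. Scaling to the supply and branch genes, an alternative chosen after seeing the data, put CED83052 at 0.18, the one change of sign, within its implied error. Each scale subtracts 1 constant from every log2 ratio, 1.07 for the equal FPKM sum. What underlies the 2.10-fold difference of the sums was not tested. The authors' test called 0 of the 5 genes at a q-value below 0.05 and also below 0.01, 1 below 0.10 and 2 at an unadjusted p-value below 0.05. Readjusted over the 6106 genes above 1 FPKM in both conditions, 0 of the 5 were called, and the q-value of CED83940 was 0.0998. The filter at 10 FPKM left 5409 genes and took out CED83052. Over these, 0 of the other 4 were called, and the q-value of CED83940 was 0.151. The shares of all genes called after readjustment are not given here. The ratios between successive genes moved by less than their combined errors with pseudocounts of 1 and 10 FPKM. No paired analysis was possible because no column holds a single sample, and leaving out single cultures was not run for the same reason.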

Other observations

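A search of the names for words on carotenoids and retinal, made after the values were seen, found 3 further genes that use or alter carotenoids by name. A rhodopsin with a retinal binding site (CDZ98620), a light-sensing or light-driven membrane protein whose cofactor derives from beta-carotene, had 118 FPKM in q2 and 35.9 FPKM in q1 in the authors' deposited table. Its log2 ratio was 1.71 with an implied error of 0.61. Its Cuffdiff p-value was 0.005 and its q-value 0.0756. A gene named for beta-carotene 15,15'-dioxygenase (CED83499), the enzyme class that splits beta-carotene into retinal, had 4.79 FPKM in q2 and 4.19 FPKM in q1 (log2 0.19, Cuffdiff q 0.928). A gene named beta-carotene ketolase (CDZ97953) on the short scaffold 167 is listed at 0 FPKM in both conditions and was not tested by the authors.

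None of the 5 carotenoid genes was among the 331 genes, of 6363 in all, that the authors placed in a sheet of selected genes. For a set of only 5 genes this absence is near that share of all genes, so nothing is concluded from it.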
